A study of Mus musculus with 11 samples.

Results

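The proteasome genes of the mouse were followed through 3 sorted stages of red cell development and in splenic dendritic cells (DC), in mice with and without an intact Zbtb46 gene. The members were all genes whose single symbol in the array's annotation is Psma, Psmb, Psmc, Psmd or Psme and a number, which gave 43 of 19933 named genes. Of these, 36 form or serve the constitutive proteasome, 5 are the interferon-inducible genes Psmb8, Psmb9, Psmb10, Psme1 and Psme2, and Psma8 and Psmb11 are forms known from testis and thymus. Psmc3ip and Psme3ip1, whose symbols carry further letters, and a probe set shared by Psme2b and Psme2 were left out. Where a gene had several probe sets, the one with the highest mean log2 intensity over all 11 arrays stood for it.

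RNA was measured on 11 Affymetrix arrays, 1 array for each genotype and cell type, from C57Bl/6 mice at steady state. KO mice were Zbtb46gfp/gfp, Het mice Zbtb46 gfp/+ and WT mice Zbtb46+/+, with gfp inserted into Zbtb46, a transcription factor gene of classical DC. CD4+ DC came from KO and WT spleens, while the progenitors (Pre MegE, then Pre CFU-E, then CFU-E) came from bone marrow of KO, Het and WT mice. Pre MegE cells carry CD117 and CD150 but no CD105 and can form megakaryocytes or red cells. Pre CFU-E cells show low CD105, and the committed red cell progenitors named CFU-E show CD105 without CD150. The labels do not say how many mice were pooled or whether the stages of a genotype share mice. P-values thus measure the spread between these arrays, which may leave out differences between mice. With 1 array per genotype and stage, the spread in the progenitor fit also holds any genotype difference that varies between stages.

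The proteasome is the main protease of cytosol and nucleus and degrades proteins tagged with ubiquitin. Its core is a stack of alpha and beta rings, in which the beta subunits encoded by Psmb5, Psmb6 and Psmb7 cut the protein chain, and caps of ATPases and other subunits bind, unfold and feed the substrate. Under interferon, and constitutively in many immune cells, the catalytic subunits are exchanged for those of Psmb8, Psmb9 and Psmb10, which gives the immunoproteasome and changes which peptides MHC class I molecules can present, while Psme1 and Psme2 encode the PA28 cap. Maturing red cells use ubiquitin and the proteasome to clear proteins that the mature cell does not keep.

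Promoter windows of 4 members are given because they show how the inducible genes Psmb8 and Psmb9 sit in the genome and which motifs were found near the start of inducible and constitutive members. They are from RefSeq (GRCm38.p6), run 5′ to 3′ along the gene and hold 250 bases before and 50 bases from the annotated start. Psmb8 lies at chr17:34197945-34198244 (plus strand), and its capitals mark TTCNNNGAA, the core of a STAT site, at position -97 from the start. Psmb9 lies at chr17:34187281-34187580 (minus strand), and its capitals mark the 225 bases between its start and that of Tap1, which is read in the opposite direction. Psme1 lies at chr14:55578244-55578543 (plus strand), with capitals for a core of the interferon-stimulated response element (GAAA, any 2 bases, GAAA), found on the other strand at position 10. Psmb5 lies at chr14:54617946-54618245 (minus strand), with capitals for TGACNNNGC, the core of the antioxidant response element, at position -47.
Psmb8: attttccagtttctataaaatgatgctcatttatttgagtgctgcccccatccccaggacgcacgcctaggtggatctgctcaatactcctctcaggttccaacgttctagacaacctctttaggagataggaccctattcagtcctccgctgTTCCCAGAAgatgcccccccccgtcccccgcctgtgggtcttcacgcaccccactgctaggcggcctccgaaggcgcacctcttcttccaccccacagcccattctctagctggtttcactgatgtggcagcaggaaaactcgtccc
Psmb9: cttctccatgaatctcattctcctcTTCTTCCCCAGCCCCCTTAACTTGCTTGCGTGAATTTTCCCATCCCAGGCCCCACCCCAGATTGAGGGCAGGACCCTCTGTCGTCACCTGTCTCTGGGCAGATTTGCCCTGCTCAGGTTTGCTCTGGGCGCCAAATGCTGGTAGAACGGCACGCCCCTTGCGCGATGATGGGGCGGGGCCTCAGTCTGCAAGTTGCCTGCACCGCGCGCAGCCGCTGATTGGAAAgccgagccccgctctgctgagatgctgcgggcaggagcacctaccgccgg
Psme1: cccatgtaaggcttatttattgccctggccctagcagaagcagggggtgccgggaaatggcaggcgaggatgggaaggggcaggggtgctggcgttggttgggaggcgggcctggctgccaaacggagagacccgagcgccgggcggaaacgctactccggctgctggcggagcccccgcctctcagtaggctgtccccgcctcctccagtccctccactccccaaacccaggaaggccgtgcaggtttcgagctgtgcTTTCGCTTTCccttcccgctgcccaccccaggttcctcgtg
Psmb5: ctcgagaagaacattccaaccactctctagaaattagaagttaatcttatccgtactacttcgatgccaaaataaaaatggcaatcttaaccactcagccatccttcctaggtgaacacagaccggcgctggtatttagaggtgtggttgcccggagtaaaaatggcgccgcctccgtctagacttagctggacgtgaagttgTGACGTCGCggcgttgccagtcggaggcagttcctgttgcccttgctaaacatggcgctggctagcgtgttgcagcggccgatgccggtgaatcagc

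Of the 43 genes, 36 matched a window in that table. Motifs were searched on both strands, and the share of all 32851 windows with a match is given for each. The interferon-stimulated response element core was found in 1 of 5 inducible and 3 of 30 constitutive genes (3.44% of all windows). TTCNNNGAA was found in 1 of 5 inducible and 1 of 30 constitutive genes (8.3%), and CACGTG, an E-box, in 1 of 5 and 3 of 30 (7.15%). TGACNNNGC was found in 0 of 5 inducible and 6 of 30 constitutive genes, Psmb5, Psmb6, Psmc6, Psmd9, Psmd12 and Psme4 (12.4%). TGACTCA, an AP-1 site that can overlap a match of the antioxidant core, was found in 0 of 5 inducible genes and 1 of 30 constitutive genes (5.2%). The erythroid factor site AGATAA was found in 0 of 5 inducible genes and 2 of 30 constitutive genes (11.2%). CCAAT had 1 of 5 and 12 of 30 (37.4%), and CACCC, bound by erythroid Kruppel-like factors, 4 of 5 and 11 of 30 (57.5%). In RefSeq's gene order Psmb9, Tap1, Psmb8 and Tap2 follow each other on chromosome 17, and Tap1 and Tap2 encode the transporter that carries proteasome-made peptides to MHC class I. Psme1 and Psme2 are parted by Emc9 alone on chromosome 14, where Psmb5 neighbours Psmb11.

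The labels were checked against marker genes and Zbtb46 itself. Of 9 DC marker genes, 9 reached the array median on both DC arrays, where their summed intensity was 72905 to 73367, against 1700 to 2889 in progenitors. In DC the lists of other cells had 1 of 3 B cell, 1 of 3 T cell, 0 to 1 of 3 NK cell, 3 of 3 plasmacytoid DC, 0 to 1 of 3 CD8+ DC, 0 to 1 of 5 granulocyte and 1 to 2 of 4 megakaryocyte markers at the median. Macrophage markers had 5 of 6 at the median in KO DC and 6 of 6 in WT DC, and on both DC arrays 3 of 4 early progenitor and 2 of 5 erythroid markers reached it. All 5 erythroid markers measured reached the median on every progenitor array. Zbtb46 had a log2 intensity of 8.02 in KO DC against 9.67 in WT DC, and of 7.50 in KO CFU-E cells against 8.87 in WT CFU-E cells. It did not follow the labels at each stage: it had 7.71, 7.67 and 7.52 in KO, Het and WT Pre MegE cells, with WT the lowest, and 7.70, 8.30 and 8.14 in KO, Het and WT Pre CFU-E cells, with Het the highest. Where it did not, the genotype rests on the label alone. How the probes lie with respect to gfp is not known here. Array medians were close, at 196 to 199 in DC and 199 to 218 in progenitors, but upper quartiles were 605 to 641 in DC and 968 to 1009 in progenitors.

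All levels below are log2 intensities, and differences between groups are log2 differences, so that 1 stands for a 2-fold change. A gene is called at a limma adjusted p under 0.05, adjusted over all genes tested. Of the 43 genes 42 were tested. Psmb11, which encodes the catalytic subunit of the thymic cortex, was below the array median on all 11 arrays, at 6.86 to 6.99 in DC and 6.46 to 6.73 in progenitors.

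From Pre MegE to CFU-E cells the constitutive proteasome rose in nearly all of its genes while the inducible catalytic genes Psmb8 and Psmb9 fell. CFU-E cells had 35 of 36 constitutive members higher and 0 lower than Pre MegE cells, with a median log2 difference of 0.65. Over all 10701 genes tested the median was 0.05, 76.6% were called, 41.5% higher and 35.1% lower. With array medians centred, 5696 genes were higher and 3085 lower instead of 4443 and 3759, and 36 of 36 constitutive genes were higher. In 35 of the 36 genes each of the 3 CFU-E arrays was above each of the 3 Pre MegE arrays, as in 43.0% of all genes tested. Among the inducible genes, Psmb8 and Psmb9 fell, Psme2 rose, and Psmb10 and Psme1 were not called.

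**Figure D1:**
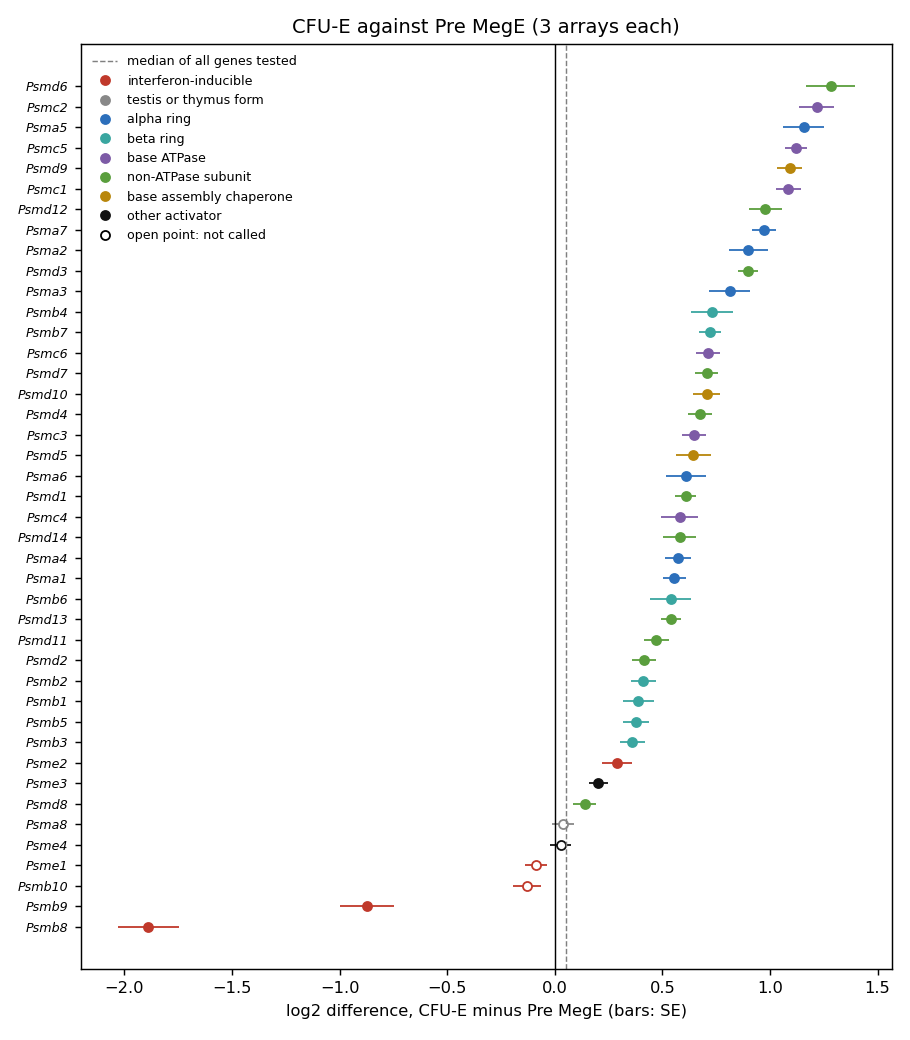
Log2 difference of CFU-E minus Pre MegE cells (x axis) for the 42 proteasome genes tested, coloured by role, with the standard error of the limma fit over 9 arrays. Filled points are called at an adjusted p under 0.05, and Psmb8 (-1.89) and Psmb9 (-0.87) stand alone on the left while constitutive genes reach 1.28.

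The largest rises were those of Psmd6, Psmc2, Psma5 and Psmc5. Psmd6, a subunit of the lid, had 11.73, 12.05 and 12.15 in KO, Het and WT CFU-E cells, and 10.74, 10.75 and 10.60 in KO, Het and WT Pre MegE cells. It averaged 11.98 ± 0.22 in CFU-E and 10.70 ± 0.09 in Pre MegE cells (SD, n = 3 each), a rise of 1.28 (SE 0.114, limma adjusted p = 4.95e-06). All 3 CFU-E arrays were above all Pre MegE arrays, and the WT array was highest. Psmc2, an ATPase of the base, had 11.18, 11.39 and 11.51 in KO, Het and WT CFU-E cells, and 10.14, 10.20 and 10.09 in KO, Het and WT Pre MegE cells, a rise of 1.22 (SE 0.0795, limma adjusted p = 5.80e-07). Psma5, an alpha ring subunit, averaged 11.40 ± 0.15 in CFU-E and 10.24 ± 0.06 in Pre MegE cells, a rise of 1.16 (SE 0.0955, adjusted p = 2.92e-06). Psmc5, another base ATPase, had 10.60, 10.60 and 10.55 in KO, Het and WT CFU-E cells, and 9.54, 9.38 and 9.47 in KO, Het and WT Pre MegE cells, a rise of 1.12 (SE 0.0502, adjusted p = 4.47e-08). For these 4 genes the groups did not overlap.

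By role, all 6 base ATPases rose, by 0.58 to 1.22 with a median of 0.90. All 7 alpha ring genes, which form the gate of the core, rose by 0.56 to 1.16 (median 0.81). All 7 beta ring genes, which include the proteolytic subunits, rose by 0.36 to 0.73 (median 0.41). The 11 non-ATPase subunits of base and lid rose by 0.14 to 1.28 (median 0.61), from Psmd8 as the smallest to Psmd6 as the largest. The 3 chaperones of base assembly, Psmd5, Psmd9 and Psmd10, rose by 0.64 to 1.09. Of the other 2 activators, Psme3, the nuclear PA28 gamma, rose by 0.20 (SE 0.0455, adjusted p = 0.00258), and Psme4, PA200, had a difference of 0.03 (SE 0.0493, adjusted p = 0.613) and is the constitutive gene that was not called. Whether roles differ from each other was not tested. Of the 5 members with several probe sets, Psma3, Psma5, Psmb3, Psmc1 and Psmd2, all probe sets moved the same way, although near-identical gene copies may share signal on such sets.

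Most of the rise was already seen at the first step. Pre CFU-E cells had 35 of 36 constitutive genes higher than Pre MegE cells and 0 lower, against a background of 66.3% called (37.1% higher, 29.3% lower). The median was 0.48 for constitutive genes and 0.04 for all genes tested. Psma5 rose by 0.87 (SE 0.0955, adjusted p = 3.50e-05), Psmc2 by 0.85 and Psmd12, a lid subunit, by 0.82. Psmd6 had 11.83, 11.53 and 11.72 in KO, Het and WT Pre CFU-E cells, each above all of its Pre MegE values. Psme4 had a difference of -0.05 (adjusted p = 0.398). Centring the array medians gave 5045 genes higher and 2522 lower instead of 3965 and 3134, with 35 constitutive genes higher as before. All alpha, beta, ATPase, non-ATPase and chaperone genes were called higher at this step, with medians of 0.55, 0.39, 0.59, 0.48 and 0.50 in that order.

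At the second step 14 of 36 constitutive genes rose further in CFU-E cells against Pre CFU-E cells and 0 fell, with a background of 44.0% called (18.7% higher, 25.3% lower). The constitutive median was 0.16 and that of all genes -0.0046. Psmd9, a base chaperone, had 10.12, 10.05 and 10.04 in KO, Het and WT CFU-E cells, and 9.58, 9.50 and 9.43 in KO, Het and WT Pre CFU-E cells, a rise of 0.57 (SE 0.0573, adjusted p = 4.71e-05). The ATPases Psmc5, Psmc2 and Psmc6 rose by 0.39, 0.37 and 0.33. Of the 6 ATPases 5 were called, of the 7 alpha genes 4 (Psma1, Psma4, Psma5 and Psma7), of the 3 chaperones 2 (Psmd9 and Psmd10), of the 11 non-ATPase subunits 2 (Psmd3 and Psmd4) and of the 7 beta genes only Psmb7 (0.15, adjusted p = 0.0371). This count leaned on single arrays, and so did that of all genes higher, 2004. Constitutive genes higher were 24 without the KO CFU-E array and 7 without the WT CFU-E array (2230 and 1465 of all genes). They were 8, 8 and 7 without the WT Pre CFU-E, Het Pre CFU-E or Het CFU-E array (1322, 1686 and 1408 of all genes).

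At the second step the KO arrays had the smallest median of the 3 genotypes. CFU-E minus Pre CFU-E differences of the 36 constitutive genes had a median of 0.03 in KO (20 higher, 16 lower), 0.27 in Het (35 higher, 1 lower) and 0.21 in WT (33 higher, 3 lower). For all genes these medians were -0.020 in KO, -0.0045 in Het and 0 in WT. The first step gave medians of 0.49 in KO, 0.39 in Het and 0.55 in WT, with 35 genes higher and 1 lower in each genotype. Over both steps the medians were 0.55 in KO, 0.65 in Het and 0.79 in WT. Each of these values comes from 2 arrays, and the 36 genes are not replicates, so the spread between KO, Het and WT carries no replicate check.

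**Figure D2:**
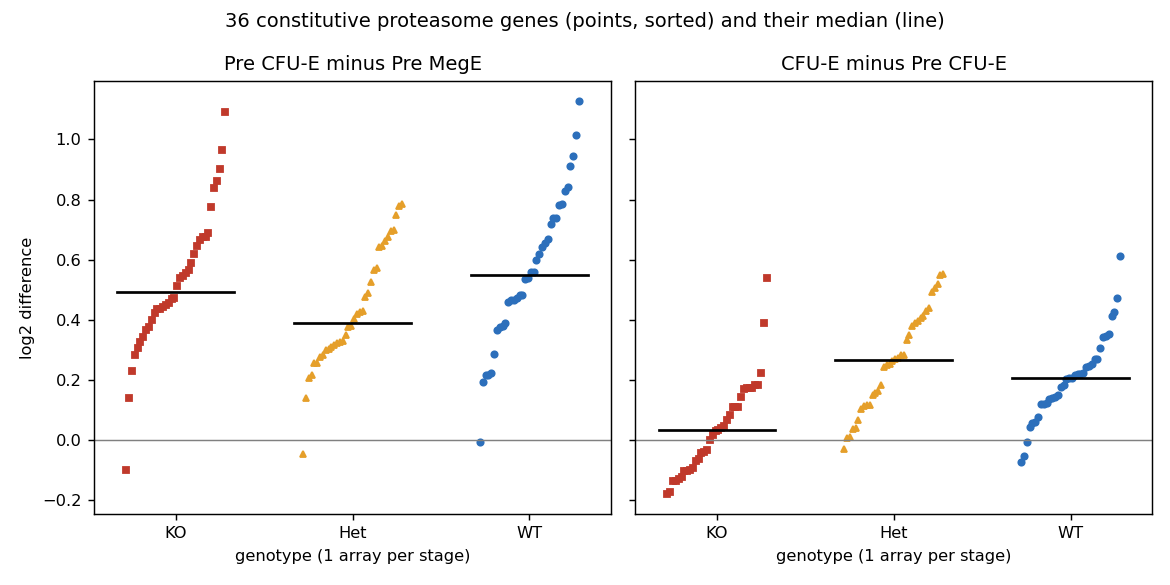
Log2 differences of the 36 constitutive proteasome genes between neighbouring stages, sorted within each genotype, for the first step (left) and the second step (right). The line is the median, which is 0.03 in KO, 0.27 in Het and 0.21 in WT at the second step.

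Psmb8, the inducible counterpart of Psmb5, showed the largest change of the 42 genes over the 3 stages. Its level was 10.62, 10.52 and 10.37 in KO, Het and WT Pre MegE cells, 10.20, 10.09 and 10.31 in KO, Het and WT Pre CFU-E cells, and 8.29, 8.54 and 9.01 in KO, Het and WT CFU-E cells. CFU-E cells averaged 8.61 ± 0.36 and Pre MegE cells 10.50 ± 0.12 (SD, n = 3 each), so that Psmb8 fell by 1.89 on the log2 scale (SE 0.142, 3.70-fold lower, adjusted p = 1.54e-06). Most of the fall lay between Pre CFU-E and CFU-E cells, where it fell by 1.59 (SE 0.142, adjusted p = 2.13e-05). At the first step the difference was -0.30 and was not called (adjusted p = 0.088). All 3 Pre CFU-E arrays were below all Pre MegE arrays, as in 32.0% of all genes tested. This first difference was called when the WT Pre MegE (-0.49), WT CFU-E or KO CFU-E array was left out.

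Psmb9, the inducible counterpart of Psmb6, had 10.44, 10.48 and 10.23 in KO, Het and WT Pre MegE cells, 10.12, 10.05 and 10.34 in KO, Het and WT Pre CFU-E cells, and 9.26, 9.44 and 9.83 in KO, Het and WT CFU-E cells. It fell by 0.87 in CFU-E against Pre MegE cells (SE 0.126, adjusted p = 1.47e-04) and by 0.66 in CFU-E against Pre CFU-E cells (adjusted p = 0.00234). The CFU-E arrays were below all others, with WT the highest of them. Psmb10, the inducible counterpart of Psmb7, stayed between 10.18 and 10.60 on all 9 progenitor arrays. It fell by 0.19 at the second step (SE 0.0672, adjusted p = 0.0451), with overlapping groups, a call lost without any 1 of 6 arrays (WT, Het or KO Pre CFU-E, Het or KO CFU-E, Het Pre MegE). Its difference of -0.13 over both steps was not called (adjusted p = 0.108).

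Psme1 and Psme2, the alpha and beta subunits of PA28, rose at first. Psme2 had 12.38, 12.26 and 12.28 in KO, Het and WT Pre CFU-E cells, against 11.94, 11.90 and 11.80 in KO, Het and WT Pre MegE cells, a rise of 0.43 (SE 0.0703, adjusted p = 4.85e-04). It had 12.05, 12.21 and 12.26 in KO, Het and WT CFU-E cells, a difference of -0.14 from Pre CFU-E cells that was not called (adjusted p = 0.145), and remained 0.29 above Pre MegE cells (adjusted p = 0.00403). Psme1 rose by 0.15 at the first step (SE 0.0524, adjusted p = 0.0298) and fell by 0.24 at the second (adjusted p = 0.00547), which left a difference of -0.09 over both (adjusted p = 0.159). Psma8, the testis form, had 8.82, 8.83 and 8.88 in KO, Het and WT Pre MegE cells, 9.06, 9.09 and 9.18 in KO, Het and WT Pre CFU-E cells, and 8.79, 8.94 and 8.91 in KO, Het and WT CFU-E cells, a rise of 0.27 and then a fall by 0.23. In all, 2 of 5 inducible genes were higher and 0 lower at the first step, where 37.1% of all genes were higher and 29.3% lower. At the second step 0 were higher and 4 lower, where 18.7% of all genes were higher and 25.3% lower. The call of Psme1 at the first step was lost without any 1 of 4 arrays, WT, Het or KO Pre MegE or WT Pre CFU-E.

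**Figure D3:**
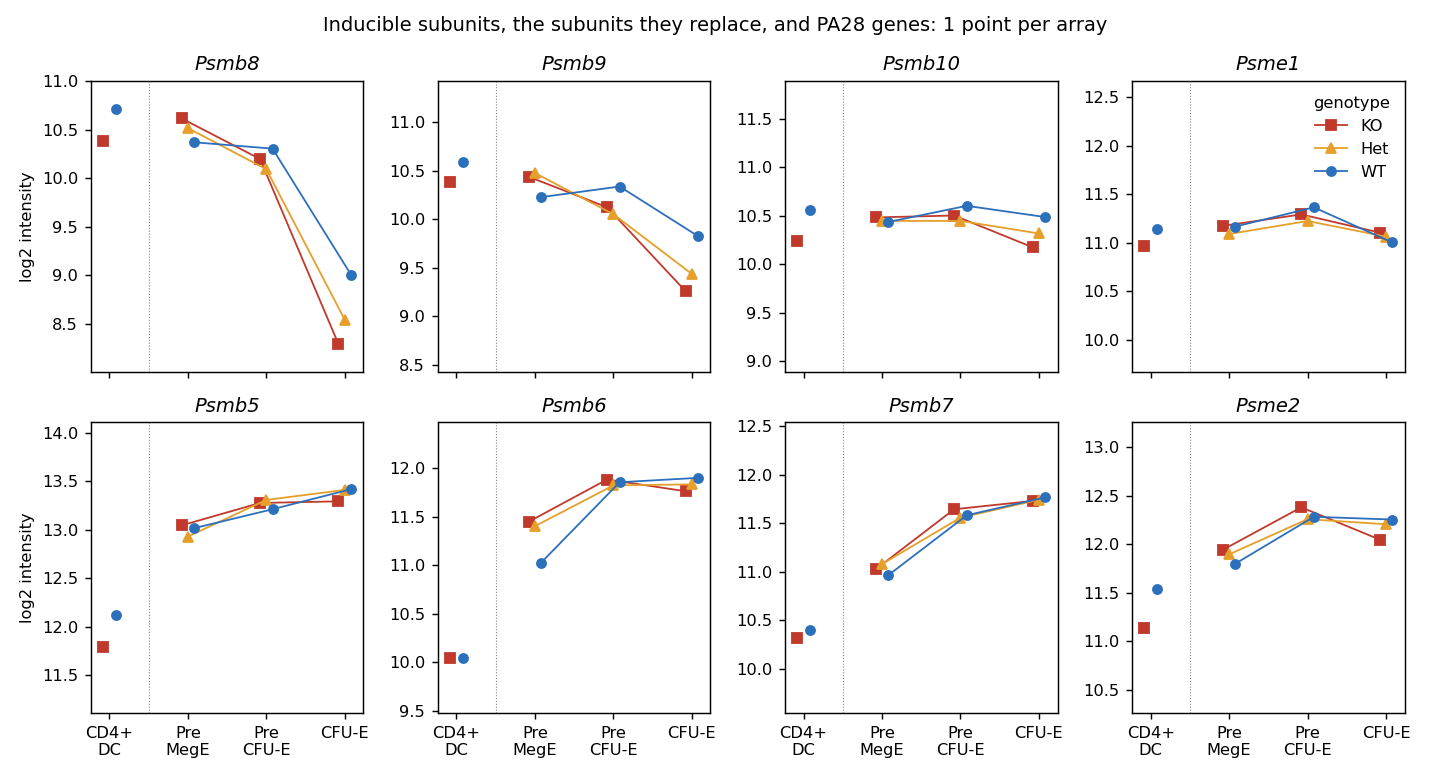
Log2 intensity of the inducible catalytic genes Psmb8, Psmb9 and Psmb10 above the constitutive genes they replace, and of Psme1 above Psme2, with 1 point per array, KO in red, Het in orange and WT in blue. Each panel spans 3 log2 units. Psmb8 drops to 8.29, 8.54 and 9.01 in KO, Het and WT CFU-E cells while Psmb5 does not drop.

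The exchange partners moved apart in each genotype. The change of Psmb8 minus that of Psmb5 between Pre MegE and CFU-E cells was -2.58 in KO, -2.46 in Het and -1.77 in WT, a shift of 5.96-, 5.49- and 3.40-fold in their ratio. For Psmb9 against Psmb6 it was -1.49 in KO, -1.47 in Het and -1.28 in WT, and for Psmb10 against Psmb7 -1.01 in KO, -0.79 in Het and -0.75 in WT. These are changes between arrays of the same 2 probe sets, and say nothing of which partner was the more abundant.

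Marker genes of other cells moved with the stages. The 5 granulocyte markers had a summed intensity of 21481, 24199 and 24527 in KO, Het and WT Pre MegE cells, 11120, 11458 and 14058 in KO, Het and WT Pre CFU-E cells, and 9774, 11169 and 12595 in KO, Het and WT CFU-E cells. All 5 reached the median on every progenitor array. The 4 early progenitor markers summed to 18159 to 18918 at Pre MegE, 7750 to 8024 at Pre CFU-E and 4199 to 4476 at CFU-E. The 4 megakaryocyte markers summed to 6364 to 6834 at Pre MegE, 1301 to 1465 at Pre CFU-E and 1043 to 1116 at CFU-E, and all 4 were called lower over both steps. CD4+ DC had more Psmb8 and Psmb9 than the mean of the progenitor stages. Their 9 markers summed to 2690 to 2889 at Pre MegE, 1809 to 2000 at Pre CFU-E and 1700 to 1762 at CFU-E. The 4 of these markers tested were all called lower over both steps. The 3 B cell markers measured summed to 666 to 707 at Pre MegE and 477 to 502 at CFU-E, with both of the 2 tested called lower. The 6 macrophage markers measured summed to 663 to 914 in progenitors, where at most 1 reached the median. The granulocyte, early progenitor, megakaryocyte and CD4+ DC sums, on the linear scale, dropped mainly at the first step. Single early progenitor markers differed in timing. In WT cells their log2 levels, in stage order, were 12.69, 12.38 and 11.67 for Kit and 12.30, 10.68 and 9.03 for Gata2. They were 11.685, 8.71 and 8.25 for Cd34 and 11.66, 8.68 and 6.89 for Meis1. The part of the marker lists in the falls of Psmb8 and Psmb9 was not tested. In such bulk samples fewer cells of a type and less RNA per cell cannot be told apart.

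Genotypes were then compared over the 9 progenitor arrays with stage as a block, which asks whether loss of Zbtb46 changes the level of proteasome genes. No member was called in any of the 3 comparisons. KO against WT had 0 of 42 called by limma (background 0.140%, 0.0187% higher and 0.121% lower), and 1 member, Psmd9, with an unadjusted p under 0.05 (difference 0.14, SE 0.0573, adjusted p = 0.842). Het against WT had 0 called (background 0.0374%, 0.00934% higher and 0.0280% lower) and 0 with an unadjusted p under 0.05. KO against Het had 0 called (background 0%) and 1 with an unadjusted p under 0.05. The constitutive median of KO minus WT was -0.001, with values from -0.10 to 0.14. Psmb8 averaged 9.70 in KO and 9.89 in WT progenitors, a difference of -0.19 (SE 0.142, adjusted p = 0.981). The 5 granulocyte markers were lower in KO than in WT at each stage, and 1 of them was called. Their part in these differences was not tested.

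Such an average over stages hides that Psmb8 and Psmb9 pointed opposite ways at the ends of the course. KO minus WT of Psmb8 was 0.25 at Pre MegE, -0.11 at the next stage and -0.71 at CFU-E. For Psmb9 it was 0.21, -0.21 and -0.57 along these stages. For Psmb10 it was 0.05, -0.10 and -0.31 along the same stages. Het minus WT was 0.15, -0.21 and -0.46 for Psmb8, and 0.25, -0.29 and -0.39 for Psmb9. At CFU-E the constitutive median of KO minus WT was -0.12, with 31 of 36 genes lower, against a median of -0.0031 for all genes. For Het minus WT it was -0.02, with 25 of 36 lower, against -0.0048 for all genes. Each of these comparisons is between 2 arrays, and the share of all genes lower was not counted.

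A term for gfp alleles times stage order, added after these values were seen, asked whether the course differs with the number of gfp alleles. It called 0 of 10701 genes and 0 of 42 members by limma, while 1029 genes and 11 members had an unadjusted p under 0.05. Psmb8 had the smallest p of the members, with a change of -0.24 per allele and stage (SE 0.0351, unadjusted p = 8.47e-05, adjusted p = 0.302), and Psmb9 had -0.19 (adjusted p = 0.469). The difference in course thus did not pass the threshold after adjustment.

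CD4+ DC carried less RNA of the constitutive proteasome than the progenitors, and more of Psmb8 and Psmb9 than the mean of the 3 stages. For Psmb8 and Psmb9 the DC arrays overlapped the Pre MegE arrays. All 36 constitutive genes were lower in the 2 DC arrays than in the mean of the 3 stages, with a median of -1.55, and in all 36 both DC arrays lay below all 9 progenitor arrays. Of all 11560 genes tested 89.9% were called, 25.3% higher and 64.6% lower, with a median of -0.59, and in 57.8% of them both DC arrays lay below all progenitor arrays. Psmb8 and Psmb9 were higher in DC, Psme2 was lower, and Psmb10 and Psme1 were not called. With quantile normalization, which reduces the shift between DC and progenitor arrays (median of all genes -0.10, 4671 higher and 5512 lower), 33 of 36 constitutive genes were lower, with a median of -0.89, and 4 of 5 inducible genes were higher.

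**Figure D4:**
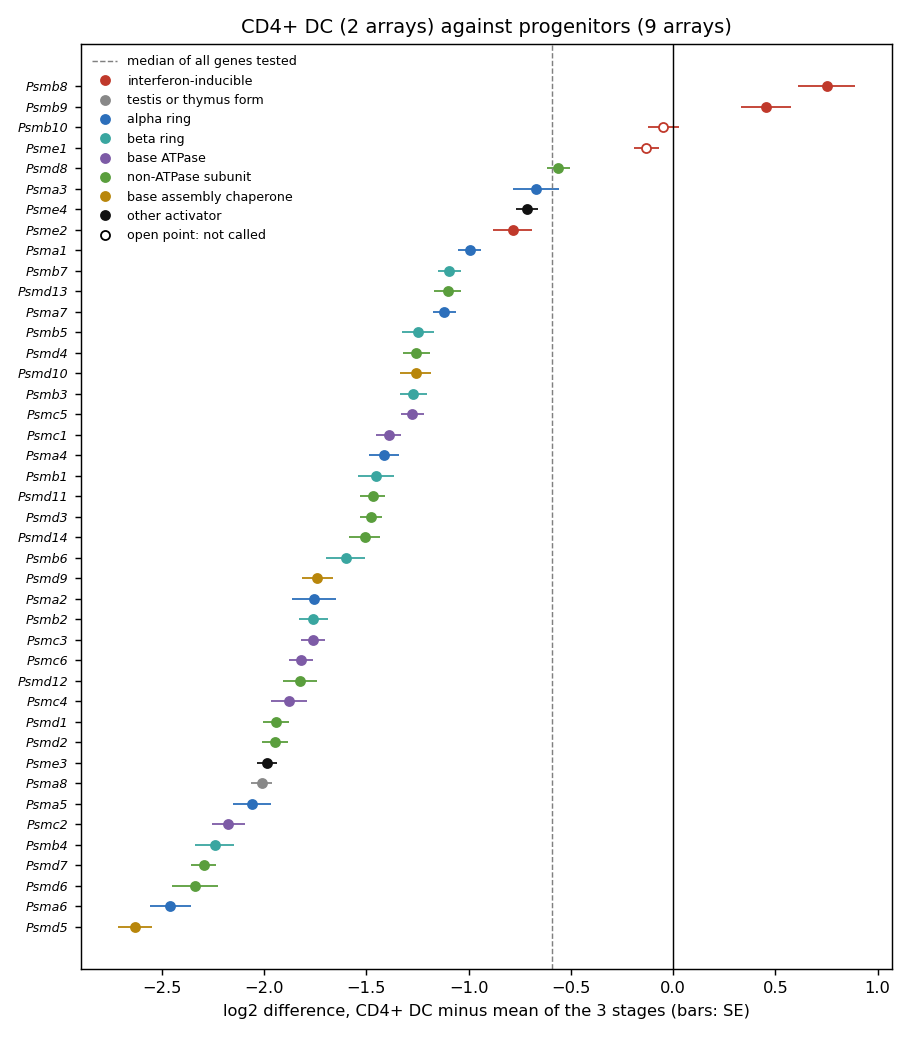
Log2 difference of CD4+ DC minus the mean of the 3 progenitor stages (x axis) for 42 proteasome genes, with the standard error of the limma fit over 11 arrays. Filled points are called, and the dashed line at -0.59 is the median of all genes tested. Psmb8 (0.75) and Psmb9 (0.45) lie to the right, and Psmd5 (-2.63) is farthest left.

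Psmd5, a chaperone that binds the base ATPases during assembly, had 8.77 and 8.98 in KO and WT DC, against 11.12 to 11.85 in progenitors, a difference of -2.63 (6.20-fold lower, SE 0.0849, adjusted p = 2.15e-10). Psma6, an alpha ring subunit, had 9.79 and 10.01 in KO and WT DC, against 11.82 to 12.68 in progenitors (difference -2.46, adjusted p = 1.14e-09). The lid subunits Psmd6 and Psmd7 differed by -2.34 and -2.30. At the other end, Psmd8 differed by -0.56 (adjusted p = 2.37e-06) and Psma3 by -0.67, Psme4 by -0.72 and Psme3 by -1.98. The ATPases had a median of -1.79, the alpha genes of -1.41 and the beta genes of -1.45. Psma8, a testis form of the alpha ring, lay below the array median in DC, at 6.88 and 6.98 in KO and WT DC, with a difference of -2.01 from progenitors (adjusted p = 4.80e-11).

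Psmb8 had 10.38 and 10.71 in KO and WT DC, against 8.29 to 10.62 in progenitors, a difference of 0.75 from the mean of the stages (SE 0.138, adjusted p = 3.68e-04). The groups overlapped, since the 3 Pre MegE arrays, at 10.37 to 10.62, were close to the DC arrays. Psmb9 had 10.39 and 10.59 in KO and WT DC, against 9.26 to 10.48 in progenitors (difference 0.45, SE 0.122, adjusted p = 0.0046). Its groups overlapped as well, with 10.44, 10.48 and 10.23 in KO, Het and WT Pre MegE cells. Psmb10 had 10.24 and 10.56 in KO and WT DC, a difference of -0.05 (adjusted p = 0.557) that was 0.64 with quantile normalization (adjusted p = 8.92e-06). Psme1 likewise differed by -0.13 (adjusted p = 0.0683), and by 0.52 with quantile normalization (adjusted p = 1.46e-05). Psme2 had 11.13 and 11.54 in KO and WT DC and was lower in DC (difference -0.78, adjusted p = 1.45e-05), a call lost with quantile normalization (-0.18).

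Relative to the subunits they replace, the inducible catalytic genes stood higher in DC of both genotypes. The DC minus progenitor difference of Psmb8 minus that of Psmb5 was 2.09 in KO and 1.91 in WT, a 4.26- and 3.76-fold shift of the ratio. It was 2.10 in KO and 2.01 in WT for Psmb9 against Psmb6, and 1.01 in KO and 1.09 in WT for Psmb10 against Psmb7. A shift common to all probe sets of an array cancels in such a difference, but a shift that varies with intensity need not. Upper quartiles were 605 to 641 in DC against 968 to 1009 in progenitors while medians were close, so the shift here was not common to all probe sets. Its share in these values was not tested. The macrophage markers, which summed to 9616 in KO DC and 12123 in WT DC and of which 5 and 6 of 6 reached the array median there, moved with these genes. Their part in the result was not tested.

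Between KO and WT DC, 1 array each, 0 of 41 members reached a log2 difference of 1, as 0.313% of 10554 genes did. The constitutive genes had a median of -0.13, with 29 lower and 7 higher in KO. All 10554 genes had a median of -0.05, with 6457 lower and 4095 higher in KO. All 5 inducible genes were lower in KO DC, Psme2 by a difference of -0.40, Psmb8 of -0.33, Psmb10 of -0.32, Psmb9 of -0.20 and Psme1 of -0.17. There is no replicate check on these values. Whether the KO effect differs between DC and progenitors was tested with limma in a fit that lends the DC arrays the spread of the progenitors. It called 0 members, against a background of 4.57% (1.56% higher, 3.01% lower), and 5 members had an unadjusted p under 0.05, with the smallest adjusted p at Psme2 (difference -0.41, SE 0.141, adjusted p = 0.143). Array weights by limma's default method moved this to 1 constitutive gene higher and 11 lower, while of all 11560 genes 1235 were higher and 2418 lower instead of 180 and 348. Weights by its gene-by-gene method moved it to 1 lower (388 of all genes higher, 764 lower). Psme2 was called lower under both, and when the array of KO CFU-E cells was left out (-0.51). Without that array 247 of all genes were higher and 576 lower. With quantile normalization 513 of all genes were higher and 622 lower. The macrophage sum was lower in KO DC, as given above, with 3 of the 5 markers tested called lower in the same test. Of 3 B cell markers 1 was called lower and 1 higher there, and 1 of 4 early progenitor and 1 of 5 granulocyte markers were called higher. The part of these lists in these differences was not tested.

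Other genes of the pathway were read from lists of genes with related roles, whose counts stand against 41.5% of all genes higher and 35.1% lower in CFU-E than in Pre MegE cells. Of the assembly factors 6 were measured, and in CFU-E cells 5 were higher than at Pre MegE with 0 lower (median 0.66). Psmg3, Psmg1 and Psmg2, chaperones of the alpha ring, rose by 1.01, 0.93 and 0.75, and Pomp, which assembles the beta ring, by 0.58, while Ecpas, a scaffold of the proteasome, had -0.02 and was not called. Of 12 proteins that bind or regulate proteasomes, 8 rose and 3 fell (median 0.42): Txnl1, a cap-bound thioredoxin, rose by 0.91 and the inhibitor Psmf1 by 0.73, and Zfand5 fell by 0.68 and the ubiquitin shuttle Ubqln2 by 0.54. Among 5 genes that control proteasome genes, 3 rose and 2 fell (median 0.15). Nfe2l1, the transcription factor of the response to a lack of proteasomes, fell by 0.22, and Keap1, Vcp and Nfe2l2 rose by 0.21, 0.20 and 0.15. Of ubiquitin and its activating enzymes only Uba6 was measured, at -0.08 (adjusted p = 0.109).

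Of 10 genes of the MHC class I peptide pathway, 4 were called lower in CFU-E than in Pre MegE cells, a share near the 35.1% of all genes. Another 2 were called higher (median of the list -0.12). Tap1, Tap2, Nlrc5 and B2m, which work with the inducible subunits, were lower, and Canx and Pdia3 were higher. Tap1 had 9.81, 9.87 and 10.19 in KO, Het and WT CFU-E cells, against 11.23, 11.33 and 11.32 in KO, Het and WT Pre MegE cells, and fell by 1.33 (SE 0.0675, adjusted p = 1.02e-07). Tap2 fell by 0.58, Nlrc5, the transactivator of MHC class I genes, by 0.42, and B2m, the light chain of MHC class I, by 0.37. Of 6 genes of interferon and immunoproteasome control, 5 were lower and 0 higher (median -0.48). Irf1, a transcription factor that drives Psmb8, Psmb9 and Tap1, had 8.55, 8.64 and 9.65 in KO, Het and WT CFU-E cells, against 10.62, 10.57 and 10.78 in KO, Het and WT Pre MegE cells, and fell by 1.71 (SE 0.150, adjusted p = 4.28e-06).

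Tap1 and Irf1 already fell at the first step, by 0.51 and 0.83, and fell by 0.82 and 0.88 at the second. In Psmb9, Tap1 and Irf1 alike WT was the highest array at CFU-E. KO minus WT of Irf1 averaged -0.69 over stages and was not called (adjusted p = 0.239), and that of Tap1 -0.22 (adjusted p = 0.599). Ifngr2 and Ifngr1, the receptor chains for interferon gamma, fell by 0.67 and 0.60, and Irf8 by 0.35. Among 8 ubiquitin enzymes known from erythroid cells 5 rose and 2 fell (median 0.48). Trim10 was higher by 2.62 and Rnf123 by 0.90, and Ube2h and Trim58 were lower (-0.86 and -0.74). Trim10 lay below the array median in Pre MegE cells, at 6.95, 6.71 and 6.70 in KO, Het and WT.

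**Figure D5:**
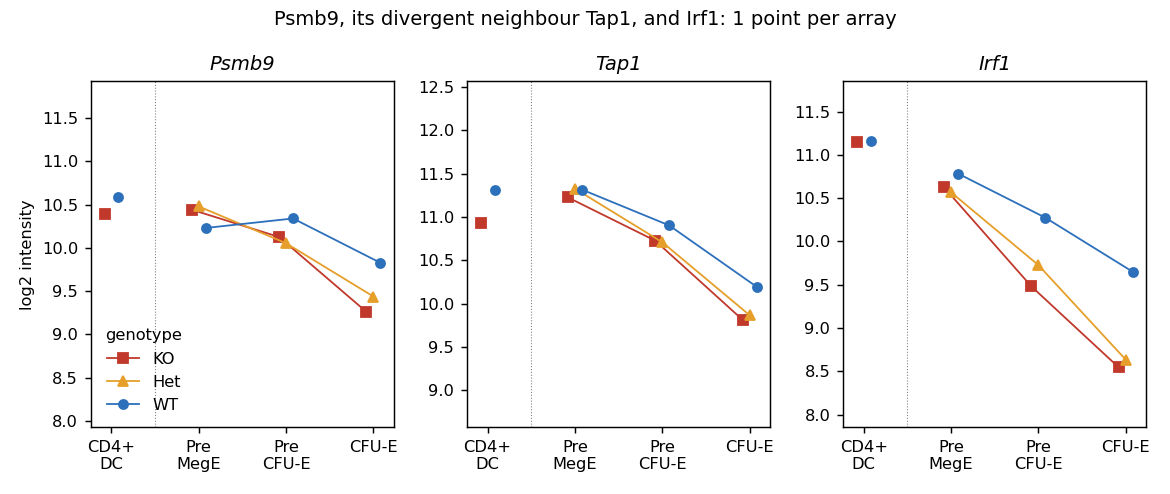
Log2 intensity of Psmb9, of Tap1, with 225 bases between its start and that of Psmb9, and of Irf1, with 1 point per array, KO in red, Het in orange and WT in blue. Each panel spans 4 log2 units, and in all 3 genes the WT CFU-E array (9.83, 10.19 and 9.65) is above the KO array (9.26, 9.81 and 8.55).

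In DC all 6 assembly factors (median -1.32) and all 5 control genes (median -0.79) were lower than in progenitors, as were 11 of the 12 binding proteins (median -1.18), with Zfand5 higher (1.18). Of the MHC class I list 6 were higher, led by Tapbp (0.63) and Tapbpl (0.57), and 4 were lower (median 0.17). Of the interferon list 4 were higher, Ifngr2 (1.94), Irf8 (1.61), Irf1 (1.26) and Stat2 (0.76), and Irf9 was lower (-0.49), with a median of 1.01. Of the erythroid ubiquitin enzymes 7 were lower, among them Ube2c (-2.77), and Ube2h was higher (0.74). These DC differences include the shift of all genes by -0.59, with 25.3% of all genes higher and 64.6% lower.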

How the data were processed

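Intensities on a linear scale were deposited, 1 per probe set and array, made with RMA according to the submitters' processing notes. Its version, any later scaling and a genome build were not given in the sources used here. Labelling used the Ambion/Affymetrix WT Expression Kit, per the labels' protocols. The log2 was taken with no further scaling. Of 29674 probe sets, 21780 had 1 symbol and named 19933 genes. Genes at or above the array median on at least 2 arrays of a fit were tested in R 4.3.3 by limma 3.58.1 (two-sided; lmFit, contrasts.fit and eBayes) with Benjamini-Hochberg adjustment. Stages and genotypes shared an additive fit of 9 arrays with 4 residual degrees of freedom (median residual SD 0.0705), DC a fit of 11 arrays with genotype as a block (5 degrees of freedom), and the KO-by-DC term a fit with 4. The number of arrays limits the precision. Members and lists were chosen with earlier results of these data known. Named were the inducible genes, their partners, the other activators, the testis and thymus forms, the 4 largest called rises and falls of constitutive genes per comparison, and up to 4 called genes per list. The fits were tested on simulated data. Alternatives were other scalings, filters, probe set rules, array weights, blocks and left-out arrays.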

Additional observations from a re-analysis of the deposited data

Results flagged for a closer look

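The limma test of a different KO effect in CD4+ DC and progenitors called 0 of the 42 proteasome genes tested. It called 1 of 5 genes of proteasome gene control and 2 of 8 erythroid ubiquitin enzymes, with 4.57% of all genes called. Nfe2l2, a transcription factor of the antioxidant response, had 11.77 in KO DC against 11.01 in WT DC, while KO minus WT was between -0.12 and 0.03 in progenitors (difference of effects 0.81, SE 0.0954, adjusted p = 0.00404). Ube2c, a mitotic ubiquitin-conjugating enzyme, had 8.68 in KO DC against 9.40 in WT DC (-0.67, adjusted p = 0.0126). Trim10 had 6.58 in KO DC against 7.04 in WT DC, both below the array median (-0.55, adjusted p = 0.0381, 0.0235 to 0.0805 over the fits that left out 1 array). The DC side of each is 1 array per genotype, its spread is taken from the progenitors, and the test could not be fitted without either DC array, so that a difference between single DC arrays cannot be told apart from one of genotype. Of the marker genes, 3 of 5 macrophage, 2 of 3 B cell, 1 of 4 early progenitor and 1 of 5 granulocyte genes were called in the same test. Their part was not tested.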

How the results depend on the processing

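Constitutive counts of 35 higher at the first step and over both steps were 34 or 35 without any 1 array and 33 to 36 over all alternatives, and 36 lower in DC held without any 1 array (33 with quantile normalization). The second step was less settled. With array weights by either method 28 constitutive genes rose (3416 of all genes with default and 2929 with gene-by-gene weights, instead of 2004). Without the WT arrays 7 rose (1188 of all genes) and without the Het arrays 6 (1329 of all genes). Without 1 array 7 to 24 rose (1322 to 2230 of all genes). Inducible genes lower, 4, were 2 without the WT arrays (1946 of all genes, instead of 2708). They were 3 or 4 without 1 array (2120 to 2795 of all genes). At the first step inducible genes higher, 2, were 1 with quantile normalization, with no filter, and without the WT, the Het or the KO arrays. Of all genes 4000, 4093, 3410, 3551 and 3620 were then higher, in that order, instead of 3965. Without 1 array 1 to 2 were higher (3507 to 4120 of all genes). Inducible genes lower, 0, were 1 with quantile normalization, and 2 with gene-by-gene weights, without the WT arrays and with the allele-by-stage term. Of all genes 3304, 3384, 2629 and 3191 were then lower, in that order, instead of 3134. Without 1 array 0 to 2 were lower (2742 to 3268 of all genes). Over both steps inducible genes higher, 1, were 0 without the WT arrays (3857 of all genes, instead of 4443). Those lower, 2, were 4 with quantile normalization (3763 of all genes, instead of 3759). In DC inducible genes higher, 2, were 4 with quantile normalization and 1 with array weights of either method. Of all genes 4671 were higher with quantile normalization, 2672 with default and 2682 with gene-by-gene weights, instead of 2928. Inducible genes lower in DC, 1, were 0 with quantile normalization (5512 of all genes, instead of 7463) and 1 to 2 without 1 array. They were 2 without the WT DC or the WT CFU-E array (7287 and 7411 of all genes). The KO-by-DC test, 0 called, gave 1 constitutive gene higher, 11 lower and 1 inducible gene lower with default weights. Of all genes 1235 were then higher and 2418 lower, instead of 180 and 348. With gene-by-gene weights it gave 1 constitutive and 1 inducible gene lower (388 of all genes higher and 764 lower). Without 1 array it gave 0 to 1 inducible gene lower. It gave 1 without the KO CFU-E array (247 of all genes higher and 576 lower). Default weights stopped before their iterations converged; gene-by-gene weights and the allele-by-stage term were added after seeing the data. In DC, quantile normalization turned Psmb10 to 0.64, Psme1 to 0.52 and Uba6 to 0.19. Of the single-gene values over all alternatives 3255 were counted as unchanged, 87 lost the call, 28 gained it and 3 reversed with a call. The unchanged values include 55 whose sign differed from the main value with neither called. They also include values of the pair of DC arrays, which had no test. Genotype counts were 0 in every alternative run. The cause of these moves was not tested. The KO-by-DC term could not be fitted without either DC array. The stage comparisons were matched by genotype and the genotype comparisons by stage. Without the genotype block 18 constitutive genes rose at the second step instead of 14. Of all genes 2095 were then higher and 2769 lower at that step, instead of 2004 and 2708. Over both steps 4483 of all genes were higher and 3814 lower without that block, instead of 4443 and 3759. Without the stage block 0 genes were higher and 1 lower in KO against WT, instead of 2 and 13. The labels carry no replicate numbers to block on.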
